A study of Glycine max with 18 samples.

Results

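Glyma.12G195500, Glyma.20G001400 and Glyma.14G053600 are 3 soybean class III peroxidase genes whose transcripts were low in roots of the cultivar DT2008 relative to Williams 82 (W82). They were chosen by their low values in well-watered DT2008 roots, and each is on the study's list of genes downregulated in DT-C/W-C, which was drawn from these same arrays. Each gene is read by 1 probe, which the study's tables pair with that gene alone, so 3 of the 66195 probes of the array were described. The tables hold 22 class III peroxidases that are paired with a probe in this way, and 9 of them, these 3 included, are on the DT-C/W-C list.

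Class III peroxidases are secreted heme enzymes of plants that use hydrogen peroxide to oxidize phenolic compounds. In the cell wall of roots they can join monolignols into lignin, take part in making suberin and cross-link wall proteins, and they can also generate reactive oxygen species in a second reaction cycle. They form a large family in every land plant, with many members in roots. Glyma.12G195500 has as its closest Arabidopsis gene AT1G05260 (RCI3), a peroxidase known in Arabidopsis as induced by cold and linked to tolerance of dehydration. The other two match AT4G11290 and AT5G05340, which the tables describe only as peroxidases.

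Roots of 14-day-old plants grown in vermiculite were taken from W82, whose genome is the soybean reference, and from DT2008, a Vietnamese cultivar. The plants were well watered and harvested at 0 h (W-C, DT-C), or were taken out and left to dry on paper until 2 h (groups W-D2, DT-D2) or until 10 h (groups W-D10, DT-D10). Each of the 6 groups had 3 biological repeats, each on an array of its own, 18 arrays in all. No roots of plants watered until 2 or 10 h had been sampled, so dehydration and time since the first harvest cannot be told apart. Drying also took place at a lower temperature and in dimmer light than growth. Effects of these changed conditions cannot be told apart from dehydration either.

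The values are log2 intensities after robust multi-array averaging (RMA), each relative to the median of its own probe over the 18 arrays. A value of 1 is thus 2-fold above that median and a value of -1 is 2-fold below it, and no value tells how abundant a transcript was or how it compares with another gene. For a probe whose cultivars do not overlap, 0 falls in the gap between them by construction. Whole roots were sampled, so fewer cells of a type and less RNA per cell cannot be told apart. Probe sequences were not used here, so a difference between the cultivars in the sequence under a probe and a difference in transcript level cannot be told apart either. Arrays of 1 group correlated with each other at 0.369 to 0.721 over all centred probes.

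Glyma.12G195500 was low in DT2008 at all 3 times. In W-C its log2 values were 1.03, 0.73 and 0.88, in W-D2 0.66, 0.74 and 0.21, and in W-D10 1.16, 0.90 and 0.94. In DT-C they were -1.07, -1.36 and -1.21, in DT-D2 -1.36, -1.89 and -2.18, and in DT-D10 -0.68, -0.71 and -0.21. Every DT2008 array stood below every W82 array, since the lowest W82 value was 0.21 and the highest DT2008 value -0.21. The order of the group means ran from W-D10 (1.00) over W-C (0.88) and W-D2 (0.54) to DT-D10 (-0.54), DT-C (-1.21) and DT-D2 (-1.81). Neighbouring groups in this order overlapped within W82 and between DT-C and DT-D2, and did not overlap between W-D2 and DT-D10 or between DT-D10 and DT-C.

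Glyma.14G053600 was also low in DT2008, with a gap that was narrower after 10 h. Its log2 values were 1.40, 0.87 and 1.18 in W-C, 0.47, 0.90 and 0.63 in W-D2, and 0.17, -0.09 and 0.53 in W-D10. They were -1.54, -1.52 and -1.25 in DT-C, -1.11, -1.48 and -1.82 in DT-D2, and -0.94, -1.24 and 0.09 in DT-D10. Of the 9 DT2008 arrays 8 stood below every W82 array, and the exception was DT-D10 replicate 3, which lay above the lowest W-D10 array. Group means ran in the order W-C (1.15), W-D2 (0.67), W-D10 (0.20), DT-D10 (-0.70), DT-C (-1.44) and DT-D2 (-1.47), and only DT-D10 and DT-C were neighbours without overlap.

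Glyma.20G001400 followed time as well as cultivar. Its log2 values were 0.82, 0.82 and 0.76 in W-C, 0.66, 0.91 and 0.75 in W-D2, and -0.16, -0.45 and -0.49 in W-D10. In DT2008 they were -0.87, -0.50 and -0.90 in DT-C, 0.38, 0.29 and 0.16 in DT-D2, and -0.76, -1.15 and -0.69 in DT-D10. At each of the 3 times all DT2008 arrays stood below all W82 arrays. Only across unlike times did the order turn, since all 3 DT-D2 arrays stood above all 3 W-D10 arrays. The group means ran from W-C (0.80) and W-D2 (0.77), which overlapped, over DT-D2 (0.28) and W-D10 (-0.37) to DT-C (-0.76) and DT-D10 (-0.87), which also overlapped.

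**Figure D1:**
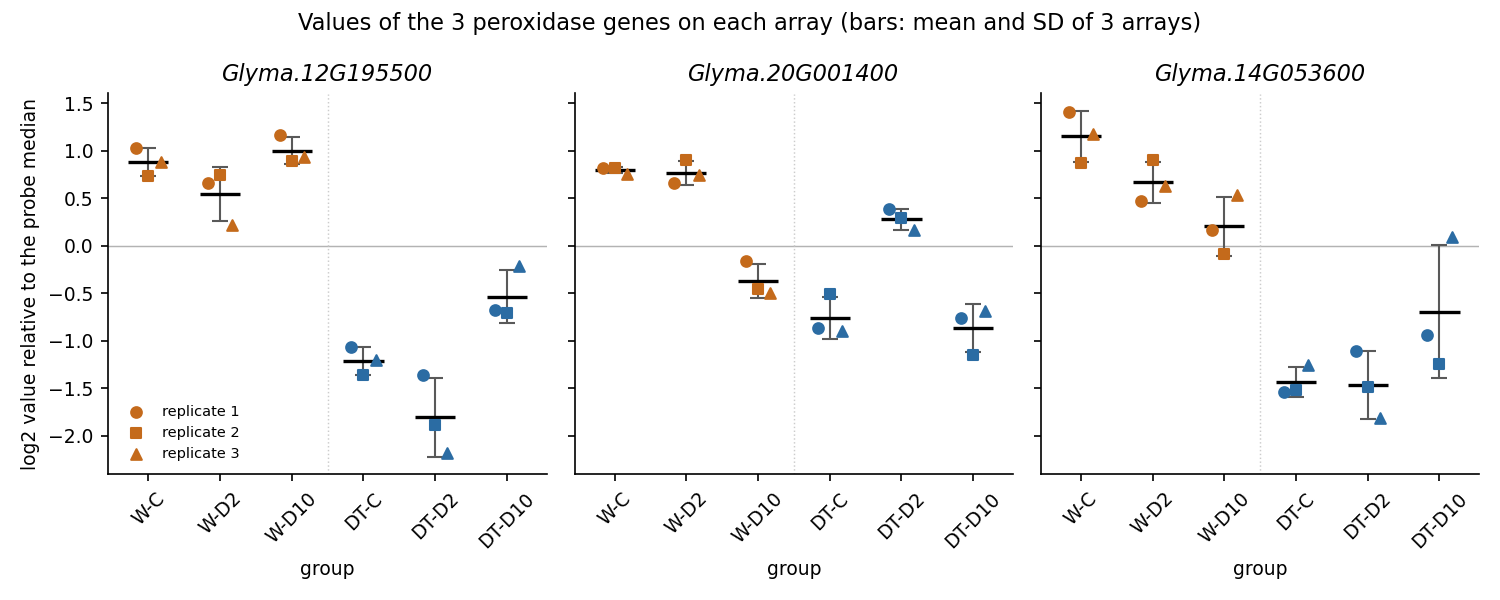
Log2 value of each gene relative to its probe median (vertical axis) on every array of the 6 groups (horizontal axis), W82 in orange and DT2008 in blue, with a marker shape for each replicate number and bars for the mean and SD of 3 arrays. Glyma.12G195500 and Glyma.20G001400 separate the cultivars at every time, and Glyma.14G053600 does so on all arrays but DT-D10 replicate 3. Glyma.20G001400 is also higher in DT-D2 than in DT-C. Its W-D10 arrays lie below W-C and W-D2, while its DT-D10 arrays lie below DT-D2 but overlap DT-C.

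The 3 genes also differed in how their variation over the 18 arrays was divided. For Glyma.12G195500 83.3% of the sum of squares lay between the cultivars, 10.5% between the times, 2.42% in their combination and 3.71% within groups. For Glyma.14G053600 these shares were 79.0%, 1.02%, 11.4% and 8.58%. For Glyma.20G001400 only 37.5% lay between the cultivars, while 45.5% lay between the times and 13.0% in their combination. The cultivar share is a description, because low values in DT2008 chose the genes.

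The cultivar differences are given with the standard error (SE) of the limma fit of all 18 arrays and with no test, for the same reason. In DT-C/W-C the log2 difference was -2.09 (SE 0.20, 4.26-fold) for Glyma.12G195500, -2.59 (SE 0.27, 6.00-fold) for Glyma.14G053600 and -1.55 (SE 0.15, 2.94-fold) for Glyma.20G001400. Quantile normalization of the arrays moved the first of these differences to -1.79 and the second to -2.19.

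After 2 h of dehydration the difference of Glyma.12G195500 was -2.35 (5.09-fold) and that of Glyma.14G053600 -2.14 (4.40-fold), while that of Glyma.20G001400 was -0.49 (1.41-fold). After 10 h the differences were -1.53 (2.90-fold) for Glyma.12G195500, -0.90 (1.86-fold) for Glyma.14G053600 and -0.50 (1.41-fold) for Glyma.20G001400. The difference of Glyma.20G001400 was thus smaller at both times of dehydration than in well-watered roots, by 1.06 (SE 0.21) on the log2 scale at 2 h and by 1.06 (SE 0.21) at 10 h. That of Glyma.14G053600 was smaller by 0.45 (SE 0.38) at 2 h, or by 0.029 after quantile normalization, and by 1.69 (SE 0.38) at 10 h. Without DT-D10 replicate 3 the DT-D10/W-D10 difference of Glyma.14G053600 was -1.29, and its change from the well-watered state was 1.29. These changes of the difference include the control arrays that chose the genes and were not tested. They compare the cultivars at equal hours of drying, not at equal water content.

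**Figure D2:**
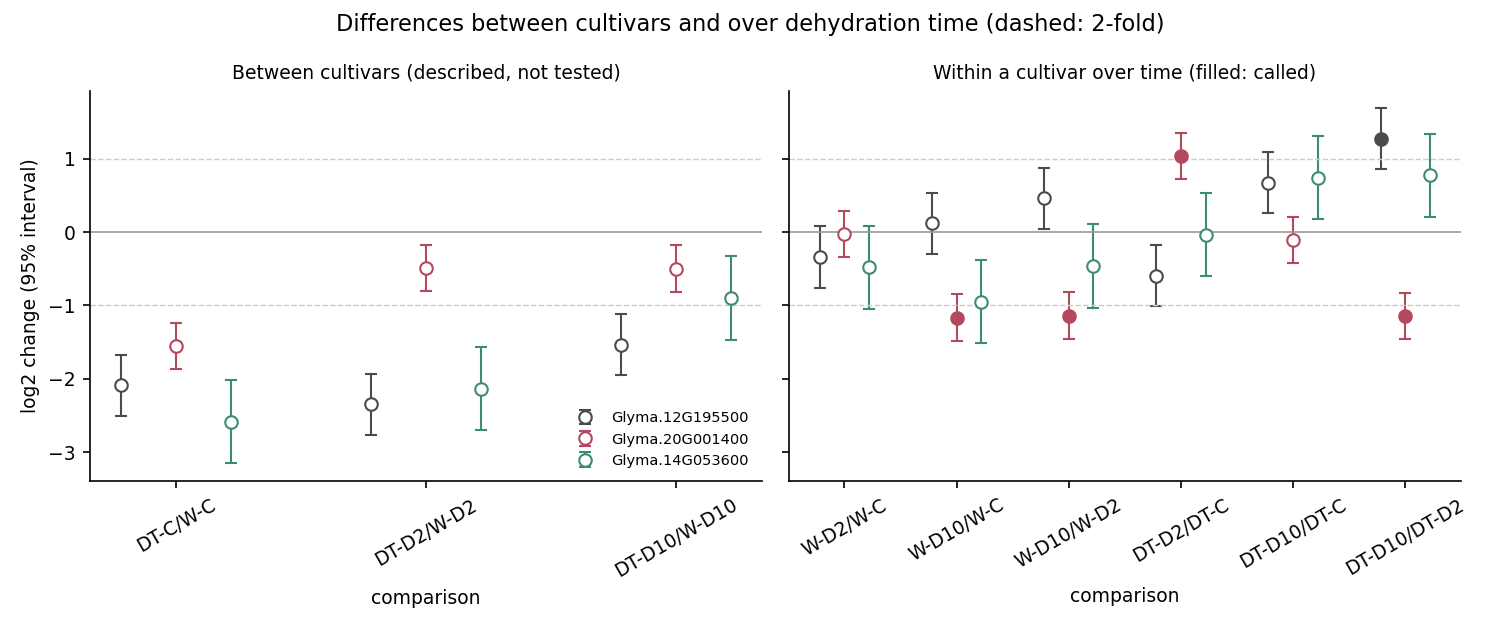
Log2 change with its 95% interval (vertical axis) of the 3 genes in 3 comparisons between cultivars (left) and in 6 comparisons over time within a cultivar (right), with dashed lines at 2-fold. Filled points passed an adjusted p of 0.05 and 2-fold: Glyma.20G001400 lower in W-D10/W-C, W-D10/W-D2 and DT-D10/DT-D2 and higher in DT-D2/DT-C, and Glyma.12G195500 higher in DT-D10/DT-D2.

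The responses to dehydration within a cultivar were tested with limma, with Benjamini-Hochberg adjustment over all 66195 probes, and a probe was called at an adjusted p under 0.05 and a change of at least 2-fold, the study's thresholds. The W-C and DT-C arrays that chose the genes are also the controls of these responses, whereas W-D10/W-D2 and DT-D10/DT-D2 use no control array. Of the 3 genes none was called in W-D2/W-C, where 2.71% of all probes were called, and none had an unadjusted p under 0.05 there. W-D10/W-C called 1 of the 3, beside 5.15% of all probes. DT-D2/DT-C also called 1 of the 3, beside 4.07%, and DT-D10/DT-C none, beside 4.46%, with 2 of the 3 at an unadjusted p under 0.05. With the methods' t-test, adjusted in the same way, none of the 3 was called in W-D2/W-C, DT-D2/DT-C or DT-D10/DT-C.

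Glyma.20G001400 was not called in W82 after 2 h (log2 change -0.03, SE 0.15, adjusted p = 0.953, 95% interval -0.34 to 0.29) and fell after 10 h by 1.17 (2.24-fold, SE 0.15, adjusted p = 2.6e-05). In DT2008 it rose after 2 h by 1.04 (2.05-fold, SE 0.15, adjusted p = 0.000125), and all DT-D2 arrays stood above all DT-C arrays. After 10 h its change from DT-C was -0.11 (adjusted p = 0.739, 95% interval -0.43 to 0.21). The low DT-C values that chose the gene are the baseline of its 2 h rise, which is thus not independent of that choice. The rise in DT-D2/DT-C also lies close to the 2-fold threshold. It was 0.95 after quantile normalization, 0.98 without DT-C replicate 1, 0.96 without DT-C replicate 3 and 0.98 without DT-D2 replicate 1, each below 2-fold, and its adjusted p was 0.0810 in the methods' t-test. The study also lists this gene among those low in DT-C/W-C and repressed in dehydrated W82 roots, so its fall in W82 is not independent of how the gene was listed.

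Some markers of green tissue were also higher in DT-D2, where Glyma.20G001400 rose. The mean of 6 probes of photosystem and light-harvesting genes was 0.50 to 0.75 on the 3 DT-D2 arrays and -0.49 to 0.36 on the other arrays. Of the 6 probes 3 were higher in DT-D2/W-D2, beside 1.65% of all probes, and 2 in DT-D2/DT-C, beside 2.89%. All of these calls came from the 4 probes taken from the study's tables, which were selected on these arrays. The 2 probes known by array symbols had a median change of 0.00082 in DT-D2/DT-C. Between the cultivars their median was 0.57 in DT-D2/W-D2 (0.29 and 0.85) and 0.66 in DT-C/W-C, not called in either. In W-D10/W-C, where Glyma.20G001400 fell, 2 of the 6 were higher and 1 was lower, beside 3.49% and 1.66% of all probes. The part of green tissue in the rise of Glyma.20G001400 was not tested. Of 12 nodule probes (nodulins and early nodulins) none was called by limma in the tested comparisons over time, beside 0.474% to 5.15% of all probes. At most 2 had an unadjusted p under 0.05 there. Only ENOD40B was called between the cultivars, by 1.04 in DT-C/W-C, beside 1.44% of all probes higher. The samples came from roots by their label, and because every probe is centred no root marker level could be read.

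Between 2 and 10 h Glyma.20G001400 fell in both cultivars by nearly the same amount. The fall was 1.14 (2.20-fold, SE 0.15, adjusted p = 0.000125) in W-D10/W-D2, where 2.44% of all probes were called. It was 1.15 (2.21-fold, SE 0.15, adjusted p = 0.000171) in DT-D10/DT-D2, where 2.23% of all probes were called. All 3 arrays at 10 h stood below all 3 arrays at 2 h in each cultivar. The difference between the cultivars in this change was -0.01 (SE 0.21, adjusted p = 0.995), with a 95% interval of -0.46 to 0.44. In the methods' t-test the adjusted p was 0.0710 in W82 and 0.0908 in DT2008.

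Glyma.12G195500, the RCI3 match, rose between 2 and 10 h in DT2008 by 1.27 (2.41-fold, SE 0.20, adjusted p = 0.000655), with all DT-D10 arrays above all DT-D2 arrays. The methods' t-test gave an adjusted p of 0.165 for it. In W82 the change over the same interval was 0.46 (adjusted p = 0.175), with the W-D10 arrays also all above the W-D2 arrays. The changes of the cultivars differed by 0.81 (SE 0.28, adjusted p = 0.211, 95% interval 0.22 to 1.40), in a comparison in which 0.474% of all probes were called. Without DT-D2 replicate 1 this difference was 1.04 and passed the thresholds (adjusted p = 0.0420).

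Against the controls the same gene showed no called change. In W82 the log2 change was -0.34 after 2 h (adjusted p = 0.362) and 0.12 after 10 h (adjusted p = 0.760), and in DT2008 it was -0.60 after 2 h (adjusted p = 0.0580). For DT-D10/DT-C it was 0.68 (SE 0.20, adjusted p = 0.0288), under 2-fold, and the DT-D10 arrays all stood above the DT-C arrays. DT-D10 was therefore the DT2008 group with the highest values of Glyma.12G195500, and still all its arrays were below those of W82.

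Glyma.14G053600 passed the thresholds in none of the comparisons over time, by limma or by the methods' t-test. In W82 its change was -0.48 (adjusted p = 0.336) after 2 h and -0.95 (SE 0.27, adjusted p = 0.0212) after 10 h, the latter 1.93-fold and thus just short of 2-fold. The W-D10 arrays all stood below the W-C arrays, and the change in W-D10/W-C passed 2-fold with array weights (-1.01), without W-C replicate 2 (-1.09) and without W-D10 replicate 3 (-1.11). In DT2008 its change was -0.03 (adjusted p = 0.966) after 2 h and 0.74 (SE 0.27, adjusted p = 0.0831) after 10 h, with all DT-D10 arrays above all DT-C arrays. The DT-D10 arrays disagreed among themselves (SD 0.70): DT-D10/DT-C was 1.01 without replicate 2, with an adjusted p of 0.0234, and 0.35 without replicate 3. Between 2 and 10 h the change was -0.46 (adjusted p = 0.347) in W82 and 0.77 (adjusted p = 0.0922) in DT2008, and the difference of 1.24 (SE 0.38) between the cultivars had an adjusted p of 0.155.

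Over the 18 arrays Glyma.12G195500 and Glyma.14G053600 varied alike, with a Pearson correlation of 0.915, while Glyma.20G001400 correlated with them at 0.367 and 0.619. These correlations are descriptions over arrays that fall into the cultivars by the choice of the genes. Each gene was also set against the 4801 other probes paired with exactly 1 gene. Closest to Glyma.12G195500 were Glyma.09G213100, a methyltransferase family member (0.986), Glyma.07G062600, a reticulon family member (0.975), LOC100306618 (0.972), Glyma.18G272000, a match of COBRA, which in Arabidopsis guides cellulose deposition in growing root cells (0.958), and Glyma.16G080100, a match of MLO1 (0.955). Closest to Glyma.14G053600 were Glyma.05G220500, a cytochrome P450 matching CYP716A1 (0.955), Glyma.09G229200, a match of the purple acid phosphatase PAP10 (0.954), Glyma.02G159900, a match of the transporter PDR11 (0.946), Glyma.18G181800, a match of the rhomboid protease RBL1 (0.945), and LOC100500415 (0.936).

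Closest to Glyma.20G001400 were LOC100500076 (0.917), the nitrate transporter gene NRT1-3 (0.903), Glyma.18G050400, a cation efflux family member (0.893), Glyma.01G129000, of unknown function (0.887), and LOC100499631 (0.874). All of the named genes with a Glyma identifier in these 3 sets are on the study's DT-C/W-C list too. Such identifiers came only from the study's tables, and the 3 genes are on that list themselves, so this sharing is not independent evidence. Over all probes, 139 correlated above 0.9 with Glyma.12G195500, 78 with Glyma.14G053600 and 19 with Glyma.20G001400, so the pattern of the last was shared by the fewest probes of the array.

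Genes with the same Arabidopsis match were not all called in the same comparisons as the 3 genes. Of the RCI3 matches, Glyma.02G151700 had group means of 1.87 ± 0.34 in W-C and -0.31 ± 0.54 in DT-C (SD, n = 3). It was thus low in DT2008 as well (DT-C/W-C -2.19, SE 0.27), and it was downregulated in W82, by 1.49 after 2 h and 1.45 after 10 h, where Glyma.12G195500 was not called. For these falls the methods' t-test gave an adjusted p of 0.0814 and 0.155. The other RCI3 match, Glyma.10G009400, did not share the cultivar difference, with -2.41 ± 0.40 in W-C and -2.22 ± 0.23 in DT-C (SD, n = 3). It was upregulated by dehydration in both cultivars, after 2 h by 2.83 in W82 (adjusted p = 4.58e-06) and 3.72 in DT2008 (adjusted p = 9.59e-08), after 10 h by 2.04 and 2.10, and it fell by 1.62 between DT-D2 and DT-D10, where Glyma.12G195500 rose. Over the 18 arrays Glyma.12G195500 correlated with Glyma.02G151700 at 0.788 and with Glyma.10G009400 at -0.299.

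The other gene matching AT4G11290, Glyma.13G306900, was lower in DT-C/W-C (-1.10, SE 0.28), but its DT-D2 mean of -1.30 ± 0.69 (SD, n = 3) lay below DT-C, where Glyma.20G001400 rose. Between 2 and 10 h in DT2008 it rose by 1.19 (adjusted p = 0.0136), opposite to the fall of Glyma.20G001400. This call was lost in 4 of 6 fits with 1 array left out (adjusted p up to 0.0861) and in the methods' t-test (adjusted p = 0.274). The correlation of the 2 genes was 0.357.

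Among the 4 other genes matching AT5G05340, Glyma.14G053700 carries the identifier next to Glyma.14G053600 and had the widest gap in well-watered roots of all the listed peroxidases, with a DT-C/W-C difference of -2.98. It fell in W82 by 1.20 after 2 h (adjusted p = 0.0416) and by 1.48 after 10 h (adjusted p = 0.00617), and correlated with Glyma.14G053600 at 0.893. The call at 2 h was lost in 5 of 6 fits with 1 array left out (adjusted p up to 0.172) and after quantile normalization (-0.89, adjusted p = 0.0894), and in the methods' t-test the adjusted p was 0.184 at 2 h and 0.181 at 10 h. Whether the probes of Glyma.14G053700 and Glyma.14G053600 cross-hybridize was not tested, so shared signal cannot be told apart from parallel levels. Glyma.04G220600 (DT-C/W-C -2.72, correlation 0.923) was not called in any comparison over time. Glyma.09G277800 (DT-C/W-C -1.61) rose after 2 h in both cultivars, by 1.40 in W82 and 1.19 in DT2008. Its call in DT2008 was lost after quantile normalization (0.90) and in 1 of 6 fits with 1 array left out. The methods' t-test gave an adjusted p of 0.0603 in W82 and 0.118 in DT2008. Glyma.06G275900, with a DT-C/W-C difference of -0.15 (SE 0.28), rose in W82 by 1.12 at 2 h and 2.01 at 10 h, and in DT2008 by 1.30 at 10 h, and its call at 2 h was lost in 3 of 6 fits with 1 array left out.

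**Figure D3:**
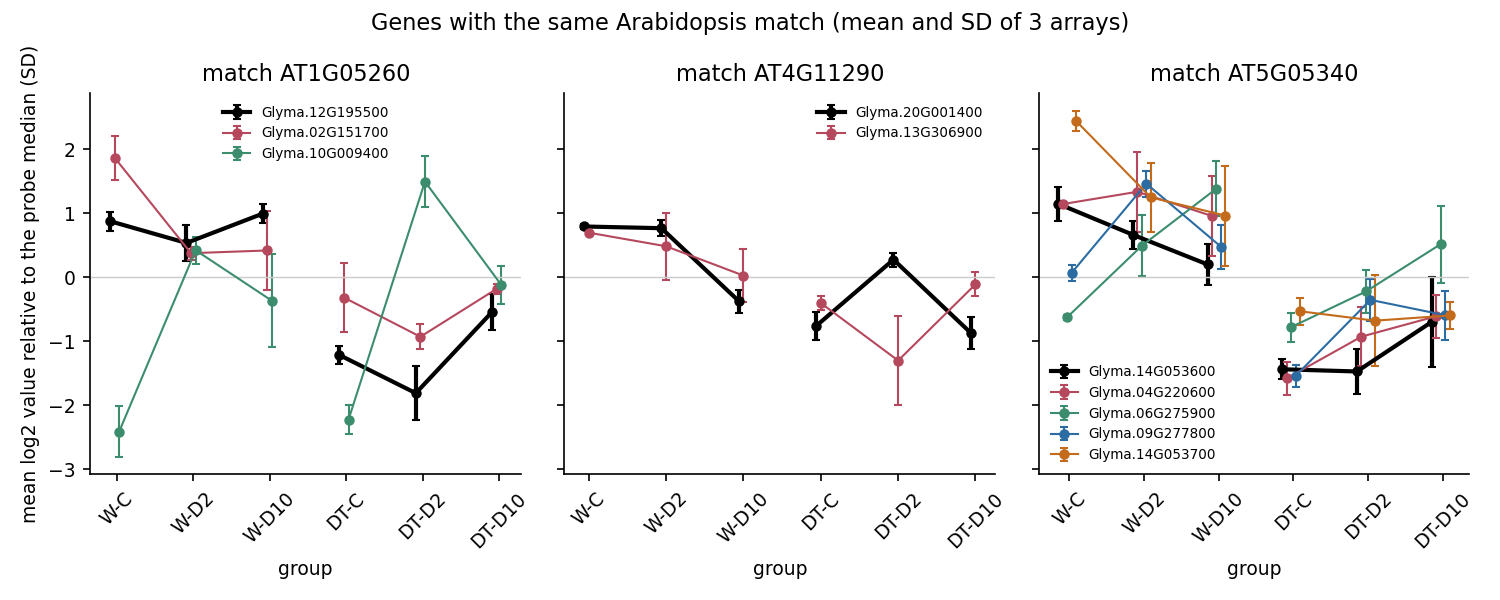
Mean log2 value with SD of 3 arrays (vertical axis) in the 6 groups (horizontal axis) for each gene (black) and the listed peroxidases with the same Arabidopsis match, with lines joined within a cultivar. Glyma.10G009400 rises by 3.72 from DT-C to DT-D2 while Glyma.12G195500 stands at -1.21 and -1.81, and Glyma.13G306900 and Glyma.20G001400 go opposite ways between DT-D2 and DT-D10.

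The tables' 19 other class III peroxidases included 18 that had been selected by the study on these arrays, so their counts are not independent evidence. In DT-C/W-C 9 of them were lower and none was higher, beside 2.07% and 1.44% of all probes, and 6 of the 9 are on the study's list for that comparison. In DT-D2/W-D2 8 were lower and 4 higher (2.56% and 1.65% of all probes), and in DT-D10/W-D10 4 were lower and none higher (1.2% and 0.523%). The median log2 difference of the 19 was -0.34 in DT-C/W-C, -0.28 in DT-D2/W-D2 and -0.30 in DT-D10/W-D10, against 0.01, 0.03 and 0.02 over all probes. Of 5 further peroxidases known by array symbols and not through the tables (PRX2, PRX2B, PRX3, PRX4 and Ep), none was called in these 3 comparisons, with a median of -0.30 in DT-C/W-C.

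Against the controls of the same cultivar more of the 19 were called higher than lower, as were more of all probes. After 2 h in W82 7 rose and 2 fell, with a median of 0.14, beside 1.83% of all probes higher and 0.884% lower. After 10 h 6 rose and 3 fell there, with a median of -0.01, beside 3.49% and 1.66%. After 2 h in DT2008 7 rose and none fell (median 0.56), beside 2.89% and 1.19% of all probes, and after 10 h 8 rose and 2 fell (median 0.95), beside 2.75% and 1.71%. The methods' t-test called 1 and 4 of the 19 in W82 and 2 and 6 in DT2008 at these times. Glyma.11G197100 rose after 10 h by 3.10 in W82 (adjusted p = 8.15e-09) and by 2.82 in DT2008 (adjusted p = 3.39e-08), and Glyma.20G171900 by 3.21 and 2.99. Glyma.17G253800 rose by 2.64 in DT-D2/DT-C and Glyma.02G008900 by 2.72. Glyma.10G222400 fell in both cultivars after 10 h, by 1.11 and 1.20, and Glyma.16G200300 fell by 1.31 in DT-D10/DT-C.

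Glyma.12G195500 was not alone in rising between 2 and 10 h in DT2008: Glyma.09G109800 rose by 1.08 and Glyma.11G049600 by 1.25, and like it both are on the study's DT-C/W-C list. With only the DT-D2 and DT-D10 arrays in the fit, neither of them nor Glyma.13G306900 passed the thresholds, and with 1 array left out the first lost its call in 2 of 6 fits and the second in 3 of 6. Of the 19, 3 rose and 2 fell in DT-D10/DT-D2, beside 1.24% of all probes higher and 0.986% lower. For W-D10/W-D2 2 rose and none fell, beside 1.45% and 0.991%, although the median of the 19 was -0.22. The methods' t-test called none of the 19 in either. None of the 19 was called by limma in the difference between the cultivars in this change, and 7 had an unadjusted p under 0.05. Of the 5 peroxidases known by array symbols only Ep was called over time, beside 0.474% to 5.15% of all probes. Ep fell by 1.38 in W-D10/W-D2 (adjusted p = 0.000300 by limma, 0.136 in the methods' t-test). At an unadjusted p under 0.05 there were 5 after 2 h in each cultivar, and after 10 h 4 in W82 and 2 in DT2008. Between 2 and 10 h there were 1 in W82 and 3 in DT2008. PRX3 in W-D2/W-C (-0.78, adjusted p = 0.00579) and Ep in W-D10/W-C (-0.95, adjusted p = 0.00283) missed only the 2-fold threshold. With no fold threshold limma called 3 for W82 after 10 h and 1 per cultivar after 2 h. It also called 1 in DT-D10/DT-D2.

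**Figure D4:**
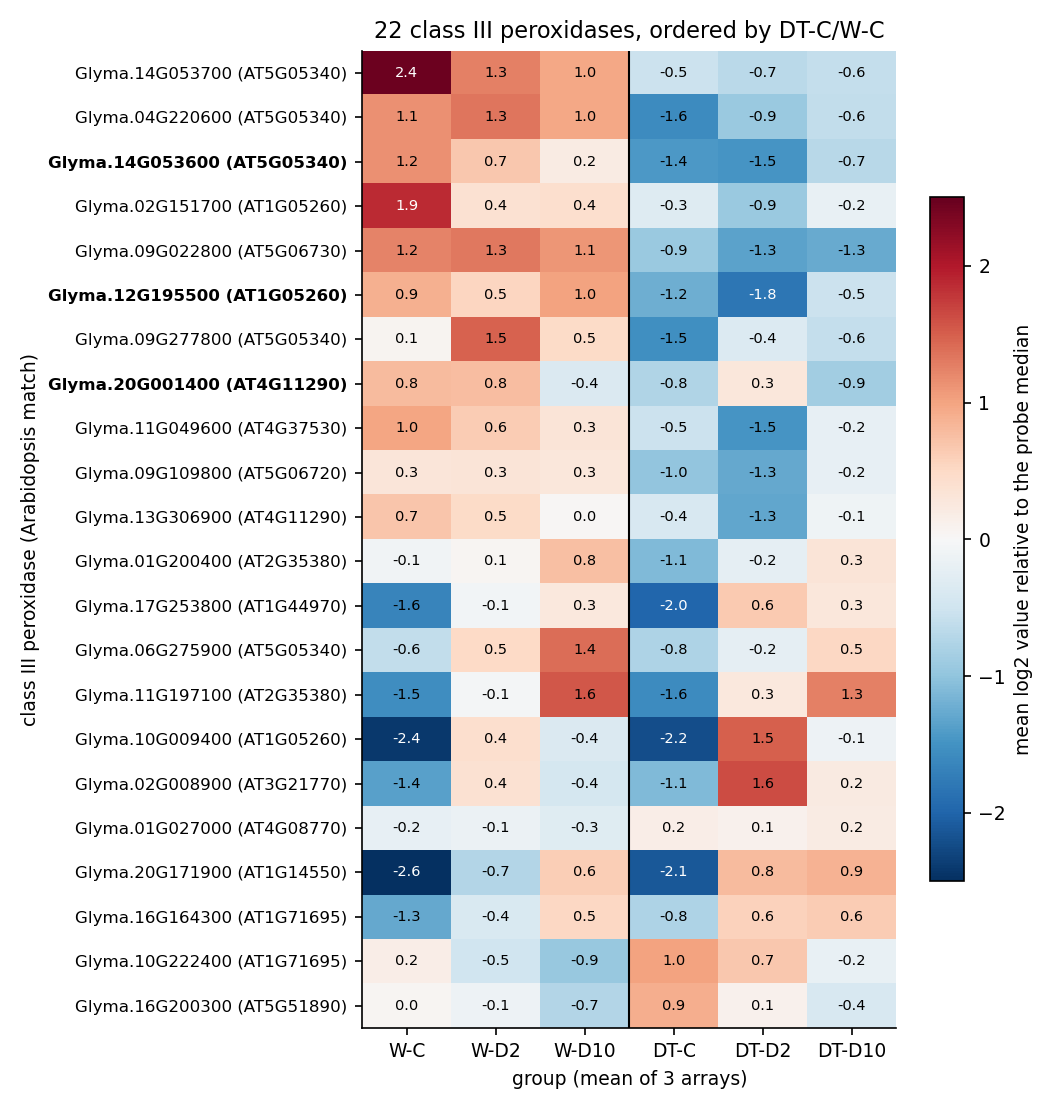
Mean log2 value relative to the probe median (colour and number) of the 22 listed class III peroxidases in the 6 groups (columns), ordered from the lowest DT-C/W-C difference at the top, with the 3 genes described in bold and the Arabidopsis match in brackets. The upper genes are high in W82 and low in DT2008, and several genes below the middle, such as Glyma.20G171900, have their lowest means in W-C and DT-C.

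Enzymes that make or remove hydrogen peroxide, the substrate of peroxidases, were read by 12 probes. At most 2 of them were called in any comparison over time. Of all probes 5.15% were called for W82 after 10 h and 4.07% and 4.46% for DT2008 after 2 h and 10 h. Between the cultivars 1 of the 9 probes known by array symbols was lower in DT-C/W-C and 1 in DT-D2/W-D2, beside 2.07% and 2.56% of all probes. The 4 probes from the study's tables were not called there, and none of either kind was called in DT-D10/W-D10. In DT-D2/DT-C Glyma.03G236300 and Glyma.19G233900, matches of RBOHB, an NADPH oxidase that makes superoxide, rose by 1.15 and 1.02. Glyma.19G233900 was also up in DT-D10/DT-C, by 1.05, where the catalase gene Glyma.14G223500 fell by 1.06. Both rises of Glyma.19G233900 were below 2-fold after quantile normalization (0.87 and 0.90). With 1 array left out its call in DT-D2/DT-C was lost in 2 of 6 fits. The calls of Glyma.19G233900 and Glyma.14G223500 in DT-D10/DT-C were each lost in 1 of 6. In W-D10/W-C Glyma.01G219400, a match of the glutathione peroxidase GPX6, rose by 1.14 and the superoxide dismutase gene SODB2 fell by 1.44, a call lost in 2 of 6 fits with 1 array left out. None of the 12 was called in W82 after 2 h, beside 2.71% of all probes. Between 2 and 10 h none was called in W82 or DT2008, beside 2.44% and 2.23%, and none in the difference between the cultivars over 2 to 10 h, beside 0.474%. At an unadjusted p under 0.05 there were 7 for W82 after 2 h, 6 for W-D10/W-D2, 7 for DT-D10/DT-D2 and 4 for that difference, and the methods' t-test called none in the first 3 of these.

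Of 12 probes of lignin and suberin genes 3 rose after 2 h in W82, beside 1.83% of all probes, and 4 in DT2008, beside 2.89%, and none fell. The methods' t-test called 2 and 1 of the 12 there. Glyma.03G181600 and Glyma.03G181700, matches of PAL1, which opens the phenylpropanoid pathway that supplies monolignols, rose after 2 h by 1.65 and 1.58 in W82 and by 1.81 and 1.96 in DT2008. Glyma.03G044900, a dirigent-like gene of the kind that steers the coupling of monolignol radicals, rose after 2 h by 1.07 in W82 and by 2.86 in DT2008, a difference of 1.79 (SE 0.35, adjusted p = 0.0268) in a comparison in which 0.42% of all probes were called. This difference missed the threshold in 8 of the 12 fits with 1 array left out. In DT-D10/DT-C 2 rose and 2 fell, among them Glyma.11G010500, a match of the ligase 4CL3, by 1.28, and Glyma.07G142400, a match of the laccase LAC7, which was 3.03-fold lower. In DT-D10/DT-D2, where Glyma.12G195500 rose, 4 of the 12 fell and none rose, beside 0.986% and 1.24% of all probes. Between 2 and 10 h in W82 3 fell and 1 rose, beside 0.991% and 1.45%, and against W-C at 10 h 2 rose and none fell, beside 3.49% and 1.66%. In these last 3 comparisons the methods' t-test called none of the 12. Between the cultivars limma called 1 of the 7 probes from the study's tables higher and 1 lower in DT-C/W-C, beside 1.44% and 2.07% of all probes. The same counts held in DT-D2/W-D2, beside 1.65% and 2.56%, and none was called in DT-D10/W-D10. The 6 probes known by array symbols were not called in these comparisons.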

How the data were processed

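Root RNA of 6 groups with 3 arrays each had been hybridized to the soybean GeneChip. The deposited log2 values of 66195 probes were made by the authors with RMA in Affymetrix Expression Console (versions not given in the sources used here), and every probe was set relative to its median of the 18 arrays. Array medians lay between -0.019 and 0.018, and no further scaling was applied. The 3 genes, the gene lists and the comparisons were chosen with earlier results of these data known.

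One mean per group was fitted to all 18 arrays by limma 3.58.1 under R 4.3.3 (12 residual degrees of freedom, 6.28 from the eBayes prior), after a check on simulated data. Adjusted p are Benjamini-Hochberg values over all probes, and intervals are 95%. The number of arrays limits the precision. Cultivar differences of the 3 genes, and their changes from the controls, were given no test.

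Of all probes 4802 were paired with exactly 1 gene, 1918 by the study's tables and 3055 by array symbol, some by both. Lists were made from table descriptions (class III peroxidases without glutathione and ascorbate peroxidases) and from array symbols. Other listed peroxidases were named when called (up to 4 per comparison and direction, lowest adjusted p first) or when they share an Arabidopsis match with one of the 3; for likeness the 5 probes with the highest correlation were named; of the other lists up to 4 called genes per comparison. DT-C/W-C list members and ENOD40B named besides these were chosen after their values were seen.

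The labels do not say whether arrays of the same replicate number belong together, and the main fit did not pair them. Alternatives were the methods' t-test, a fit of only the arrays compared, a replicate block, median centring, quantile normalization, array weights, no fold threshold for counts, and leaving out each array. Tables and figures used Python 3.11.15, pandas 2.3.3, NumPy 2.4.6 and Matplotlib 3.10.9.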

Additional observations from a re-analysis of the deposited data

Results flagged for a closer look

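The arrays of Glyma.14G053600 lay on opposite sides of their controls in the cultivars after 10 h, though neither change passed the thresholds: all W-D10 arrays stood below all W-C arrays, with a change of -0.95 (adjusted p = 0.0212 by limma, under 2-fold), and all DT-D10 arrays above all DT-C arrays, with a change of 0.74 (adjusted p = 0.0831). The 10 h responses differed by 1.69 (SE 0.38), and this difference was not tested, because the well-watered arrays in it chose the gene. The highest DT-C array (-1.25) and the lowest DT-D10 array (-1.24) are nearly equal, and without DT-D10 replicate 3 the change in DT-D10/DT-C was 0.35 and the difference 1.29.

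The dirigent-like gene Glyma.03G044900 rose more after 2 h in DT2008 than in W82, and the responses differed by 1.79 (SE 0.35, adjusted p = 0.0268 by limma), in a comparison in which 0.42% of all probes were called. With 1 array left out the difference lay between 1.62 and 1.94, with an adjusted p between 0.0143 and 0.0840, and it missed the threshold in 8 of the 12 cases.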

How the results depend on the processing

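Of 468 recomputed values of the 3 genes, 434 kept their direction and side of the thresholds or moved by less than 1 SD. In 11 the sign turned, each for a change near 0 that was not called under any alternative: Glyma.20G001400 in W-D2/W-C (0.043 after quantile normalization, -0.095 to 0.030 with 1 array left out), in DT-D10/DT-C (-0.20 to 0.033) and in the difference between the cultivars over 2 to 10 h (-0.098 to 0.135), and Glyma.14G053600 in DT-D2/DT-C (-0.22 to 0.14). The replicate block, the fit of only the arrays compared and median centring changed no call of the 3 genes. With the replicate block the DT-D10/DT-D2 change of Glyma.12G195500 stayed at 1.27; same-numbered arrays deviated from their group means with a median correlation of -0.02 over 45 pairs. In the methods' t-test 4 calls were lost at unchanged values: 1.27 for Glyma.12G195500 in DT-D10/DT-D2, and for Glyma.20G001400 1.04 in DT-D2/DT-C, -1.14 in W-D10/W-D2 and -1.15 in DT-D10/DT-D2; the cause was not tested. That test was not run on differences of changes. Quantile normalization took the DT-D2/DT-C rise of Glyma.20G001400 to 0.95, its 10 h difference of responses to 0.85, the DT-C/W-C differences of Glyma.12G195500 and Glyma.14G053600 to -1.79 and -2.19, their 2 h differences of responses to -0.67 and 0.029, and their 10 h differences to 0.30 and 1.24; the cause was not tested. Array weights took W-D10/W-C of Glyma.14G053600 to -1.01. With 1 array left out, DT-D2/DT-C of Glyma.20G001400 lay between 0.96 and 1.16, W-D10/W-C of Glyma.14G053600 between -1.11 and -0.80, its DT-D10/DT-C between 0.35 and 1.01, its DT-D10/DT-D2 between 0.38 and 1.05, its DT-D10/W-D10 between -1.29 and -0.63, its 10 h difference of responses between 1.29 and 1.96, and the difference between the cultivars over 2 to 10 h of Glyma.12G195500 between 0.63 and 1.04.

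Of the 19 other peroxidases, the methods' t-test called 1 at 2 h and 4 at 10 h against W-C, 2 at 2 h and 6 at 10 h against DT-C, and 0 in W-D10/W-D2 and in DT-D10/DT-D2, where limma called 9, 9, 7, 10, 2 and 5. With no fold threshold 11 were called in DT-D2/DT-C and 6 in W-D10/W-D2. With only the arrays compared 2 were called in DT-D10/DT-D2 and 1 in the difference between the cultivars over 2 to 10 h, in which quantile normalization called 1 and array weights 3. With 1 array left out W-D10/W-D2 gave 2 to 4 calls, DT-D10/DT-D2 2 to 6 and that difference 0 to 4, the 4 without DT-D2 replicate 1. DT-D10/DT-D2 gave 3 calls without DT-D2 replicate 2 or 3 and 2 without DT-D10 replicate 3, and W-D10/W-D2 gave 4 without W-D10 replicate 1 or 2.

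The counts for the other lists were recomputed as alternatives chosen after seeing the data. Of the 12 hydrogen peroxide enzymes, no fold threshold gave 4 calls at 2 h and 5 at 10 h against W-C, 5 at 2 h and 4 at 10 h against DT-C, 3 in W-D10/W-D2 and 5 in DT-D10/DT-D2. The methods' t-test gave 1 call for W82 after 10 h, and for DT2008 after 2 h also 1. Quantile normalization gave 1 in DT-D2/DT-C, 1 in DT-D10/DT-C, 2 in W-D10/W-D2 and 1 in DT-D10/DT-D2, and array weights gave 1 in DT-D10/DT-D2. With 1 array left out their counts ran from 1 to 2 for W82 at 10 h and for DT2008 at 2 h, from 1 to 3 at 10 h in DT2008, and from 0 to 1 in W-D10/W-D2 and DT-D10/DT-D2. Of the 12 lignin and suberin genes, the methods' t-test called 1 in DT-D2/DT-C and 0 in W-D10/W-C, in W-D10/W-D2 and in DT-D10/DT-D2. No fold threshold gave 7 against W-C at 10 h and 11 in W-D10/W-D2. In the difference between the cultivars over 2 to 10 h array weights gave 1 and leaving out 1 array 0 to 1. For the other genes named, the methods' t-test lost 47 of 70 calls, quantile normalization 7 of 71, the fit of only the arrays compared 3 and array weights 1.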
